A study of Mus musculus with 12 samples.

Results

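Macrophage and lymphocyte genes were compared between terminal end buds, ducts and distal stroma of the mouse mammary gland. The set held 38 genes, chosen by name as markers of immune cells. Their ratios were not used to choose them, but earlier results of these data were known when this set and the other lists were drawn up. The set comprised 21 myeloid genes, 13 lymphoid genes and 4 genes shared by most leukocytes (Ptprc, Cd52, Coro1a and Rac2). Of these, 34 had a named probe and were measured on 35 probes, among 12913 named genes on 17589 probes in all. The 18 measured myeloid and 12 measured lymphoid genes are kept apart below. No named probe was found for Cd68, Csf1r and Lyz2 among the myeloid genes or for Lck among the lymphoid genes, and these 4 are not analysed here. Each of the 34 measured genes had values on at least 4 arrays of each group, so that none was lost to the filter.

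Macrophages of the mammary gland gather around the terminal end bud, the club-shaped growing tip of the duct during puberty, and along mature ducts. They depend on colony stimulating factor 1, a ligand of the receptor encoded by Csf1r, and mice that lack this ligand form fewer terminal end buds. Interleukin 34 is another ligand of the same receptor. Adipose tissue of the gland holds its own resident macrophages, which carry scavenger and mannose receptors such as Cd163 and Mrc1. Lymphocytes lie within and next to the ductal epithelium, and the fat pad contains a lymph node.

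The arrays measured total RNA with a dye for each of 2 samples. Terminal end buds (6 arrays) or mature ducts (6 arrays) were labelled with Cy5, and stroma without epithelium, taken far from the ducts, was labelled with Cy3 on every array. All tissue came from mammary glands of mice 5 weeks old, and all groups share the B-actin-GFP reporter, which was used to see the glands while they were dissected. Each value is a normalized ratio of epithelial structure over distal stroma on a log2 scale, so that 0 means equal signal and 1 means a ratio of 2 to 1. Base 2 was inferred from the size of the values, and a natural logarithm is also possible. The labels give Cy5 to the structures and Cy3 to stroma on all arrays, with no dye swap, and this sets the direction of the ratios. Stroma was only ever the reference, and the labels do not say whether its RNA was 1 pool. It is counted here as 1 control sample, so that tests against it may leave out its spread. Nothing in the labels says that the arrays of a group came from different mice. The p-values therefore measure only how these arrays varied, which may be technical variation. The dissected structures are mixtures of cells, and in such tissue fewer cells of a type and less RNA per cell cannot be told apart.

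The array medians over all probes lay between 0.01 and 0.023. The labelled tissues were checked against marker lists. Of 11 luminal epithelial genes, 10 were higher than stroma in terminal end buds and 10 were higher in ducts. Of 8 basal epithelial genes, 7 were higher than stroma in terminal end buds and 8 in ducts. Between the structures, 4 of these 8 were lower in terminal end buds. Of 14 adipocyte genes, 13 were lower in terminal end buds and 7 in ducts, and of 10 endothelial genes, 10 were lower in terminal end buds and 6 in ducts. The fibroblast list differed from these. Of 12 fibroblast genes, 6 were higher and 1 lower than stroma in terminal end buds (median 0.38). In ducts 8 were higher and 0 lower (median 0.61). Between the structures, 10 of the 14 adipocyte genes and 9 of the 10 endothelial genes were lower in terminal end buds than in ducts, and the array medians of neither list overlapped between the structures: they ran from -1.97 to -1.53 in terminal end buds and -0.78 to -0.39 in ducts for adipocyte genes, and from -1.34 to -0.90 and -0.56 to -0.15 for endothelial genes. Of all genes, 46.6% were called in terminal end buds against stroma, 30.2% in ducts and 20.4% between the structures. In the same order, the adipocyte shares were 92.9%, 50% and 71.4%, and the endothelial shares 100%, 60% and 90%. Luminal shares were 90.9%, 90.9% and 36.4%, and basal shares 87.5%, 100% and 50%. The fibroblast shares were 58.3%, 66.7% and 41.7%. Several arrays stood apart for the myeloid genes and are described with them.

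Promoters are shown for 4 genes on which the results turn: the macrophage receptors Mrc1 and Cd163 and the complement gene C1qb, which were lower than stroma in terminal end buds, and Coro1a, which was higher. The sequences are from RefSeq on build GRCm38.p6 and cover the 200 bases before the annotated start, written 5′ to 3′ on the gene's strand: Mrc1 at chr2:14229214-14229413 on the plus strand, Cd163 at chr6:124304451-124304650 on the plus strand, C1qb at chr4:136886201-136886400 on the minus strand and Coro1a at chr7:126704817-126705016 on the minus strand (the first of 2 windows listed for it). Capitals mark GAGGAA, or its reverse complement TTCCTC, the core of the site bound by PU.1, the transcription factor that directs macrophage development.
Mrc1: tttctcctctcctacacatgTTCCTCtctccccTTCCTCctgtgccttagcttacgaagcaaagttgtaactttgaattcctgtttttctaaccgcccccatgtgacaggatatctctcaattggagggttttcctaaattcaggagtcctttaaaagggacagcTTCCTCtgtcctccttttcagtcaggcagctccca
Cd163: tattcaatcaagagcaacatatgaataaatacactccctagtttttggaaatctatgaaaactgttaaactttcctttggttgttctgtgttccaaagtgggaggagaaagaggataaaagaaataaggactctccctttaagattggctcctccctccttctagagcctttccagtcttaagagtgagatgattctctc
C1qb: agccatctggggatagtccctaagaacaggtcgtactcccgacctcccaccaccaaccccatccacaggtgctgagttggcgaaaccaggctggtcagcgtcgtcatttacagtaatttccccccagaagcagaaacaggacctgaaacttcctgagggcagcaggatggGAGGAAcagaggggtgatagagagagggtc
Coro1a: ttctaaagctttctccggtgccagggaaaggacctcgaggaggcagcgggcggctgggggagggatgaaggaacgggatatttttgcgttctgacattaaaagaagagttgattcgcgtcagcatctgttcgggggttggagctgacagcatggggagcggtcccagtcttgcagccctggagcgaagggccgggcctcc
The Mrc1 window held 3 matches and the C1qb window 1, while the windows of Cd163 and Coro1a held 0. Of the 34 measured genes, 23 had a window in the table, and 16 of their 26 windows (61.5%) held the motif on either strand, compared with 19.0% of 32851 windows of the same length over all genes and 18.5% of 13042 windows of genes named on the array. A match of these letters is a description of the window and not a measured site.

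Between the structures, most immune genes differed little. Of the 34 genes, 3 were higher in terminal end buds than in ducts (Cd79b, Coro1a and Cd52) and 1 was lower (Mrc1), by limma's moderated test with Benjamini-Hochberg adjustment over all probes and a threshold of 0.05. The 4 genes are 11.8% of the 34, against 20.4% of all genes called in this comparison, of which 9.11% were higher and 11.3% lower. The median difference over the 34 genes was -0.0012 on the log2 scale, and 0.001 over all genes. A difference within 0.5 of 0 was found for 31 of the 34 genes, or 91.2%, against 86.2% of all genes. The terminal end bud and duct arrays did not overlap for 2 of the 34 genes, Mrc1 and Cd79b, and for 11.2% of all genes.

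Against stroma, more genes were called than between the structures, both in the set and over all genes. A test against stroma also has the smaller standard error, 0.11 against 0.16 for Adgre1. Of the 18 myeloid genes, 6 were lower than stroma in terminal end buds and 2 were higher, 44.4% against 46.6% of all genes. In terminal end buds 5 of the 34 were higher and 9 lower than in stroma, 41.2% of the genes against 46.6% of all genes, of which 24.8% were higher and 21.8% lower. In ducts 3 were higher and 2 lower, 14.7% against 30.2% of all genes, of which 17.1% were higher and 13% lower. The median ratio of the 34 genes was -0.076 in terminal end buds and -0.084 in ducts, and over all genes it was 0.013 in each. The 5 genes that passed in ducts (Csf1, Cd14 and Cd79b higher, C1qb and Cd4 lower) also passed in terminal end buds in the same direction. Both comparisons have distal stroma as the reference.

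**Figure D1:**
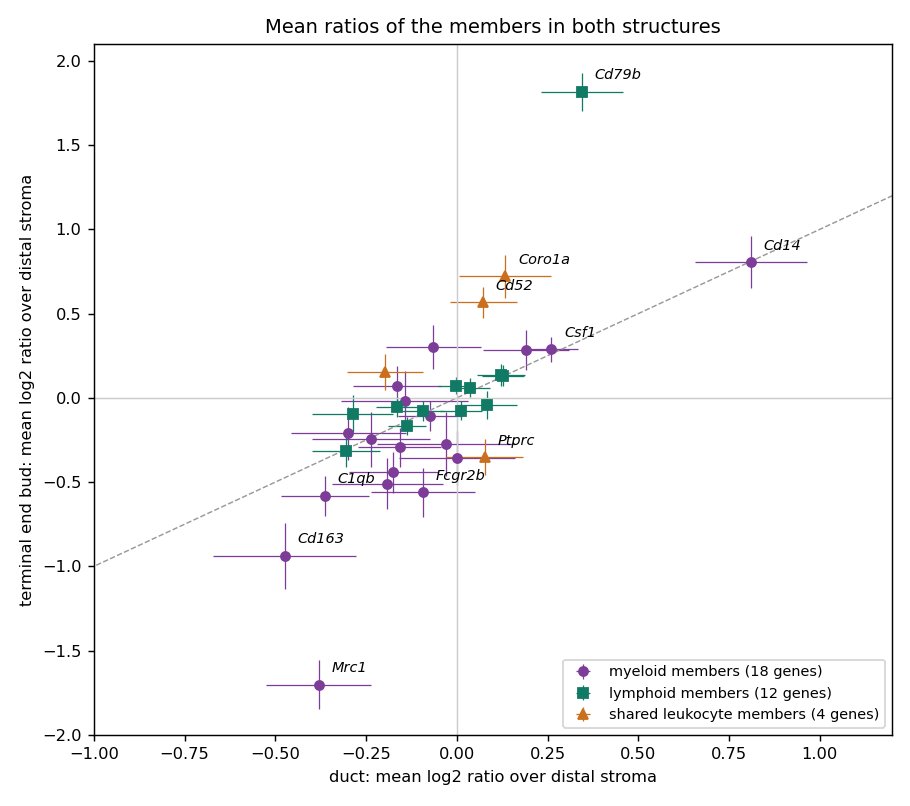
Mean log2 ratio over distal stroma of each of the 34 measured genes in ducts (x axis) and terminal end buds (y axis), with bars for the standard error of the fit and a dashed line where both are equal. Cd79b lies far above the line at 1.82 in terminal end buds and 0.34 in ducts, Mrc1 lies far below it at -1.70 and -0.38, and Cd14 lies on it at 0.80 and 0.81.

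Csf1 encodes the growth factor on which most tissue macrophages depend. Its log2 ratio ran from 0.12 to 0.62 in terminal end buds, with a median of 0.24, and from -0.017 to 0.49 in ducts, with a median of 0.28. All 6 terminal end bud arrays and 5 of 6 duct arrays lay above 0, and the structures overlapped almost fully. Csf1 was higher than in stroma in terminal end buds (mean 0.29 ± 0.17, SD, n = 6, adjusted p = 0.00525, limma) and in ducts (0.26 ± 0.18, SD, n = 6, adjusted p = 0.0162, limma). The structures differed by 0.027 (SE 0.10, adjusted p = 0.901, limma). The duct call was lost without duct replicate 2 (0.23, adjusted p = 0.0521) and without duct replicate 5 (0.21, adjusted p = 0.0651). It was also lost on the slides up to 193 alone and on those from 196 on alone.

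Other ligands that recruit or sustain myeloid cells were read from a list of 48 measured chemokine and colony stimulating factor genes, including their receptors. Of the 48, 16 were higher and 9 lower than stroma in terminal end buds, 6 were higher and 6 lower in ducts, and 10 differed between the structures, 6 of them higher and 4 lower in terminal end buds. These shares, 52.1%, 25% and 20.8%, lie near the 46.6%, 30.2% and 20.4% of all genes called. Il34, the second ligand of the Csf1 receptor, ran from 0.62 to 1.34 in terminal end buds (median 1.23) and from 0.031 to 0.68 in ducts (median 0.33). All 12 arrays were above 0, and the groups overlapped only where the lowest terminal end bud array met the highest duct array. Il34 was higher in terminal end buds than in ducts by 0.74 on the log2 scale (adjusted p = 0.00278, limma), and this held in 24 of 24 alternative analyses. Its higher ratio in ducts than in stroma (0.35, adjusted p = 0.0225, limma) held in 21 of 25 and was lost without duct replicate 1, 2 or 5 (adjusted p = 0.0582 to 0.0867).

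Among the chemokines, Cx3cl1, the ligand of the monocyte receptor Cx3cr1, was higher than in stroma in both structures, at 1.29 ± 0.37 in terminal end buds and 1.55 ± 0.47 in ducts (SD, n = 6). Cx3cr1 itself ran from 0.40 to 0.96 in terminal end buds and from -0.17 to 0.18 in ducts, with no overlap, and was higher in terminal end buds by 0.70 (adjusted p = 0.000514, limma). Cxcl10, an interferon-induced ligand, was higher in terminal end buds than in ducts by 0.70, and Cxcl14 was lower by 0.82 while it was higher than in stroma in both structures, at 1.05 and 1.87. Cxcl12, the ligand of Cxcr4, and Ackr3, a receptor that removes it, were lower than in stroma in terminal end buds, at -1.10 and -1.50. Both were also lower there than in ducts, which stood at -0.28 and -0.60 against stroma. The duct call of Cxcl12 held in 15 of 25 alternative analyses and was lost without duct replicate 1, 2, 5 or 6 or terminal end bud replicate 5 or 6 (adjusted p = 0.053 to 0.154). Cxcl13, which attracts B cells to follicles, was lower than in stroma in both structures, at -1.22 ± 0.56 in terminal end buds and -1.45 ± 0.52 in ducts (SD, n = 6).

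Mrc1, the mannose receptor of tissue macrophages, showed the largest fall among the 34 genes. Its log2 ratio was -2.38 on the lowest terminal end bud array, -1.67 at the median and -1.18 on the highest. In ducts it was -0.86, -0.41 and 0.12. Every terminal end bud array lay below every duct array. The difference was -1.32 (SE 0.20, adjusted p = 0.00049, limma), a ratio 2.50-fold lower in terminal end buds. Against stroma Mrc1 was 3.26-fold lower in terminal end buds (mean -1.70 ± 0.39, SD, n = 6, adjusted p = 2.83e-07, limma). In ducts it stood at -0.38 ± 0.42 (SD, n = 6, adjusted p = 0.0649, limma). It passed the test in ducts in 6 of 25 alternative analyses: without duct replicate 2 (-0.48, adjusted p = 0.0332), without duct replicate 5 (-0.47, adjusted p = 0.0447), without terminal end bud replicate 5 (adjusted p = 0.0362), after quantile normalization (-0.52, adjusted p = 0.0352), with early against late slides as a term (adjusted p = 0.0298) and on the later slides, from 196 on, alone (-0.54, adjusted p = 0.0394). On the earlier slides, up to 193, it stood at -0.070 in ducts (adjusted p = 0.811). The difference between the structures was -1.31 on the earlier slides and -1.33 on the later slides, and passed on each. Mrc1 is also carried by lymphatic endothelium, and the endothelial and adipocyte array medians given above were also lower in terminal end buds than in ducts. Their part in its difference was not tested.

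Cd163, the scavenger receptor for haptoglobin and haemoglobin complexes, was below stroma on all 12 arrays. It ran from -1.76 to -0.22 in terminal end buds, with a median of -0.96, and from -1.50 to -0.13 in ducts, with a median of -0.25. The structures overlapped, since duct replicate 4 at -1.50 was lower than all but 1 of the terminal end bud arrays. Cd163 was lower than in stroma in terminal end buds (mean -0.94 ± 0.59, SD, n = 6, adjusted p = 0.00127, limma). In ducts it did not pass (-0.47 ± 0.53, SD, n = 6, adjusted p = 0.092, limma), and neither did the difference between the structures (-0.46, SE 0.28, adjusted p = 0.306, limma).

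Cd14, the co-receptor for bacterial lipopolysaccharide, which epithelial cells can also express, was the macrophage receptor of this set that lay above stroma in both structures. It was above 0 on all 12 arrays, from 0.30 to 1.39 in terminal end buds (median 0.93) and from 0.18 to 1.35 in ducts (median 0.83). The structures covered nearly the same range. It was higher than in stroma by 1.75-fold in terminal end buds (mean 0.80 ± 0.42, SD, n = 6, adjusted p = 0.000585, limma) and by 1.75-fold in ducts (0.81 ± 0.44, SD, n = 6, adjusted p = 0.00119, limma). Both calls held in 25 of 25 alternative analyses. The structures differed by -0.0060 (SE 0.22, adjusted p = 0.989, limma). Luminal epithelial genes were also above stroma on every array, with array medians from 2.84 to 4.66, and their part in the Cd14 ratio was not tested.

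The remaining surface markers of macrophages lay close to stroma. Adgre1, a surface antigen that defines mouse macrophages, ran from -0.74 to -0.075 in terminal end buds and from -0.57 to 0.36 in ducts. All 6 terminal end bud arrays were below 0, yet the mean of -0.29 ± 0.24 (SD, n = 6, adjusted p = 0.051, limma) missed the threshold. It passed under 10 of 25 alternative analyses, among them the analysis without terminal end bud replicate 2 (-0.34, adjusted p = 0.047) and those without duct replicate 2 (adjusted p = 0.0287), 4 (0.0393) or 6 (0.0455). Itgam, the integrin chain CD11b, had means of -0.11 ± 0.24 and -0.074 ± 0.22 in terminal end buds and ducts (SD, n = 6). Msr1, the class A scavenger receptor, had means of 0.068 ± 0.41 and -0.17 ± 0.23 (SD, n = 6). Neither gene passed a test in any of the 3 comparisons.

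Of the Fc receptors, Fcgr2b, the inhibitory receptor for immunoglobulin G, was lower than stroma in terminal end buds. Its values ran from -1.21 to 0.031 in terminal end buds, with a median of -0.54, and from -0.47 to 0.53 in ducts, with a median of -0.21. Terminal end bud arrays were low but for 1, and the groups overlapped. The mean was -0.56 ± 0.41 in terminal end buds (SD, n = 6, adjusted p = 0.00531, limma) and -0.094 ± 0.39 in ducts (SD, n = 6, adjusted p = 0.683, limma), and the difference of -0.47 did not pass (SE 0.20, adjusted p = 0.142, limma). The activating receptor Fcgr3 stood at -0.21 ± 0.47 and -0.30 ± 0.42 (SD, n = 6). Fcer1g and Tyrobp, the adaptors through which activating receptors signal, stood at -0.018 ± 0.59 and 0.30 ± 0.39 in terminal end buds and at -0.14 ± 0.37 and -0.065 ± 0.32 in ducts (SD, n = 6). None of these 3 passed a test. Tyrobp passed against stroma without terminal end bud replicate 5 (0.38, adjusted p = 0.039).

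The 3 chains of C1q, the first component of complement and largely a macrophage product in tissue, differed in their calls: 1 of the 3 passed. C1qb ran from -1.10 to 0.024 in terminal end buds (median -0.64) and from -0.81 to 0.00 in ducts (median -0.36). It was lower than in stroma in terminal end buds (mean -0.58 ± 0.37, SD, n = 6, adjusted p = 0.00112, limma) and in ducts (-0.36 ± 0.29, SD, n = 6, adjusted p = 0.0367, limma). The duct call for C1qb was lost without duct replicate 1 (adjusted p = 0.0907), 3 (0.0595), 4 (0.0867) or 6 (0.131). C1qa had a mean of -0.25 ± 0.58 in terminal end buds (SD, n = 6, adjusted p = 0.248, limma), with 5 arrays below 0 and replicate 2 at 0.78. C1qc had a mean of -0.36 ± 0.53 (SD, n = 6, adjusted p = 0.0869, limma), also with its highest value on replicate 2. Without terminal end bud replicate 2, both were lower than in stroma: C1qa at -0.45 (adjusted p = 0.00741, limma) and C1qc at -0.51 (adjusted p = 0.0153, limma).

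Relative to the mean of the C1q chains on the same array, Mrc1 was lower by a similar amount on each terminal end bud array, from -1.58 to -1.13 (mean -1.31 ± 0.17, SD, n = 6). In ducts the same within-array difference ran from -0.53 to 0.12 (mean -0.18 ± 0.27, SD, n = 6). The groups did not overlap on this measure, which was chosen after the values were seen and is given as a description. For Cd163 the difference to the C1q chains ran from -0.98 to 0.20 in terminal end buds and from -1.17 to 0.24 in ducts, with full overlap.

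Among other complement genes, many of them made by fibroblasts and adipocytes, those that passed in terminal end buds were all lower. Of 13 measured, 8 were lower and 0 higher than stroma in terminal end buds, 1 was lower and 1 higher in ducts, and 7 were lower and 0 higher in terminal end buds when set against ducts, or 61.5%, 15.4% and 53.8% against 46.6%, 30.2% and 20.4% of all genes. C1s1 and C1ra, the proteases that C1q activates, were lower in terminal end buds than in ducts, with differences of -1.54 and -1.38, as was Cd55, which limits complement on the cell surface, with -1.35. Serping1, the inhibitor of the C1 proteases, had a difference of -1.22. These calls held in 24 of 24 alternative analyses each. In ducts the higher gene was Cd46 (0.27) and the lower one C5ar1 (-0.27), both near the threshold. The Cd46 call was lost without duct replicate 4 (adjusted p = 0.0707) and without duct replicate 5 (0.17, adjusted p = 0.0677), and that of C5ar1 held in 16 of 25 alternative analyses and was lost without any 1 of duct replicates 1, 3, 4, 5 and 6 or of terminal end bud replicates 1, 4 and 6 (adjusted p = 0.0505 to 0.131). In terminal end buds the median of the complement genes was lowest on replicate 5 (-1.11) and highest on replicate 2 (-0.27), the arrays that were also extreme for the myeloid genes. The part of adipocyte and endothelial signal in the complement differences was not tested.

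**Figure D2:**
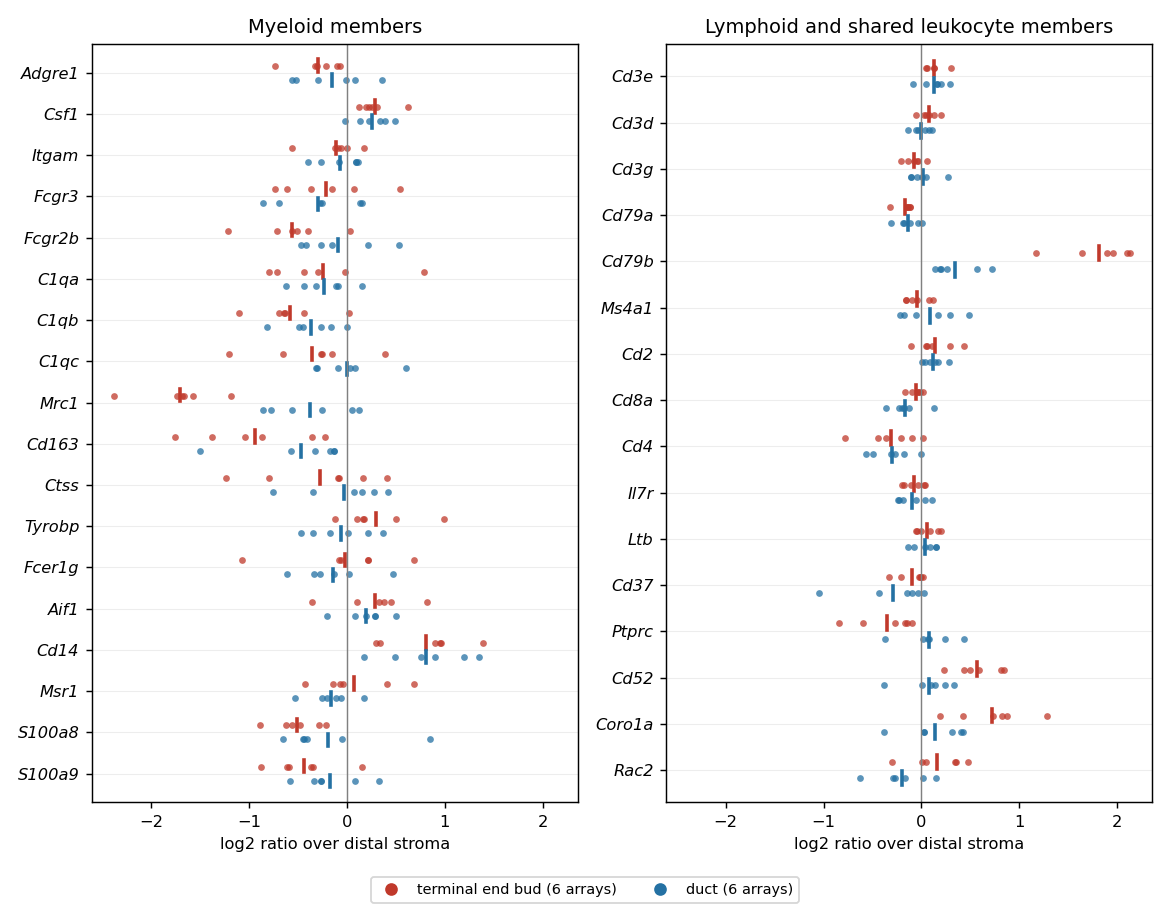
Log2 ratio over distal stroma (x axis) on each of the 6 terminal end bud arrays (red) and 6 duct arrays (blue) for the myeloid genes (left) and the lymphoid and shared leukocyte genes (right), with a bar at each mean. Terminal end bud points for Mrc1, -2.38 to -1.18, and for Cd79b, 1.17 to 2.13, are clear of the duct points, while most lymphoid genes lie within a narrow band around 0.

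The calcium-binding proteins S100a8 and S100a9, abundant in neutrophils and monocytes, were lower than stroma in terminal end buds. S100a8 ran from -0.89 to -0.21 there, with a median of -0.52, and from -0.65 to 0.85 in ducts, with a median of -0.43. S100a9 ran from -0.88 to 0.15 in terminal end buds, with a median of -0.48, and from -0.58 to 0.32 in ducts, with a median of -0.27. Both genes were below 0 on most arrays of either structure, and the structures overlapped. The means in terminal end buds were -0.51 ± 0.24 for S100a8 (SD, n = 6, adjusted p = 0.0136, limma) and -0.44 ± 0.35 for S100a9 (SD, n = 6, adjusted p = 0.00908, limma), and in ducts -0.19 ± 0.55 and -0.17 ± 0.32 (SD, n = 6), which did not pass. The S100a8 call was lost without terminal end bud replicate 4 (adjusted p = 0.0527), and S100a8 passed as lower in ducts without duct replicate 2 (-0.40, adjusted p = 0.00934). Of 7 neutrophil genes outside this set, Mpo (0.17) and Ltf (1.76) were higher and Prtn3 (-0.52) lower than stroma in terminal end buds (42.9%, against 46.6% of all genes). Ltf was also higher in ducts (3.44). Between the structures, Ltf (-1.68, adjusted p = 0.00393, limma) and Prtn3 (-0.58, adjusted p = 0.025, limma) were lower in terminal end buds (28.6%, against 20.4%). In the alternative analyses, the number lower there ran from 0 to 2. Ltf, lactoferrin, is also made by the mammary epithelium. The Mpo call held in 14 of 25 alternative analyses and was lost without any 1 of terminal end bud replicates 1, 3, 4, 5 and 6 or duct replicate 1 (adjusted p = 0.0501 to 0.136).

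Ctss, the lysosomal protease cathepsin S that trims the invariant chain, had means of -0.27 ± 0.62 in terminal end buds and -0.030 ± 0.44 in ducts (SD, n = 6). Aif1, the actin-bundling protein Iba1, had means of 0.28 ± 0.39 and 0.19 ± 0.24 (SD, n = 6). Neither passed a test, with values on both sides of 0 in each structure. Aif1 passed in terminal end buds without replicate 5 (0.41, adjusted p = 0.00532, limma).

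As a class, the 18 myeloid genes gave 2 higher and 6 lower than stroma in terminal end buds, with a median of -0.26. In ducts 2 were higher and 1 lower, with a median of -0.15, and between the structures 0 were higher and 1 lower, with a median of -0.086. The shares called, 44.4%, 16.7% and 5.56%, were near or below the 46.6%, 30.2% and 20.4% of all genes. Myeloid genes varied more between arrays than other genes: their median SD was 0.40 over terminal end bud arrays and 0.35 over duct arrays, against 0.19 and 0.17 over all genes. The same arrays were extreme for many of the genes. Terminal end bud replicate 5 was the lowest of its group for 14 of the 18 genes and replicate 2 the highest for 13. Duct replicate 2 was the highest of its group for 13, and duct replicates 6 and 4 were the lowest for 8 and 6.

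The array medians of the myeloid genes ran from -0.74 on terminal end bud replicate 5 to 0.16 on replicate 2, and from -0.45 on duct replicate 6 to 0.36 on duct replicate 2. Without terminal end bud replicate 2, 9 myeloid genes were lower and 2 higher than in stroma in terminal end buds (median -0.36), and without replicate 5, 6 were lower and 4 higher (median -0.12). On the slides up to 193 alone, with 2 arrays per group, 2 rose above and 2 fell below stroma in terminal end buds (median -0.099), and on the slides from 196 on, with 4 per group, 1 was higher and 10 lower (median -0.42). The share of all genes called under each of these settings is not given here. In ducts the median was 0.16 on the earlier slides and -0.25 on the later ones, and without duct replicate 2 it was -0.24.

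Single calls against stroma also depended on the slides. On the earlier slides alone, the terminal end bud calls of Fcgr2b (-0.24, adjusted p = 0.445), C1qb (-0.31, 0.295), S100a8 (-0.25, 0.578), S100a9 (-0.11, 0.735), Ptprc (-0.18, 0.22), Cd4 (-0.10, 0.584) and Cd79a (-0.13, 0.371) were lost, and Rac2 (0.41, adjusted p = 0.0359) passed as higher. On the later slides alone, that of Csf1 (0.22, adjusted p = 0.0645) was lost, while C1qa (-0.56, adjusted p = 0.00302), C1qc (-0.47, adjusted p = 0.0398), Fcgr3 (-0.47, adjusted p = 0.0384) and Adgre1 (-0.37, adjusted p = 0.0317) passed as lower than stroma. On the earlier slides C1qa and Fcgr3 had the opposite sign, at 0.38 (adjusted p = 0.243) and 0.30 (adjusted p = 0.21), and C1qc and Adgre1 stood at -0.13 and -0.14. Quantile normalization ended the terminal end bud calls of S100a8 (-0.42, adjusted p = 0.0791) and Cd79a (-0.15, adjusted p = 0.0741), and Cd163 (-0.56, adjusted p = 0.0354) then passed as lower in ducts. On the earlier slides the duct calls of Csf1 (0.36, adjusted p = 0.105, limma), C1qb (-0.24, 0.469), Cd79b (0.20, 0.559) and Cd4 (-0.44, 0.0508) were lost. On the later slides those of Csf1 (0.21, adjusted p = 0.104, limma) and Cd4 (-0.24, 0.164) were lost. S100a8 (-0.39, adjusted p = 0.023, limma) and Mrc1 then passed as lower in ducts. Lists of other cells were extreme on some of the same arrays, in differing directions. Among terminal end bud arrays, replicate 2 had the highest median of 12 fibroblast genes (1.12) and the lowest of 11 luminal (3.17) and 10 endothelial genes (-1.34). Replicate 5 had the lowest fibroblast median (0.15). The lowest array depended on the use of medians. By list means it was terminal end bud replicate 3 for fibroblast (0.20), 1 for luminal (2.95) and 4 for endothelial genes (-1.33). Terminal end bud replicate 2 was still the highest for fibroblast genes by the mean (0.91). Duct replicate 2 had the highest fibroblast median of its group (1.18) and the lowest endothelial one (-0.56). The lowest fibroblast median in ducts was on replicate 3 (0.14), not on replicate 6, and the lowest luminal one on replicate 1 (2.84), not on replicate 2. Over all terminal end bud arrays, 6 of the 12 fibroblast genes were higher and 1 lower than in stroma. Their part in the myeloid ratios was not tested.

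**Figure D3:**
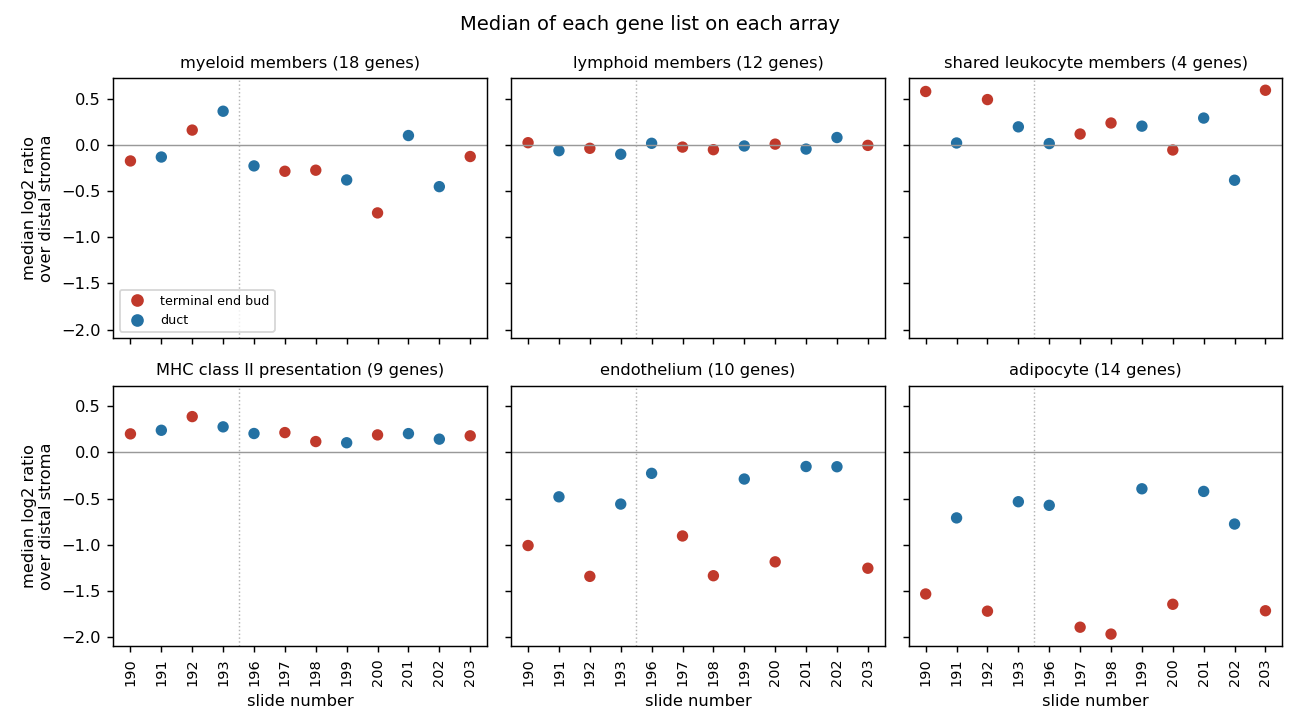
Median log2 ratio over distal stroma (y axis) of 6 gene lists on each array, in order of slide number (x axis), with terminal end buds in red, ducts in blue and a dotted line between slides 193 and 196. Myeloid medians range from -0.74 to 0.36 with both structures mixed, lymphoid medians stay between -0.10 and 0.079, and the endothelial and adipocyte medians of the structures are separate.

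The 4 genes carried by most leukocytes gave calls in both directions: Coro1a and Cd52 were higher than stroma in terminal end buds, Ptprc was lower, and Rac2 did not pass. Of these few genes, 75% were called in terminal end buds, 0% in ducts and 50% between the structures. Over all genes the shares were 46.6%, 30.2% and 20.4%. Coro1a, an actin regulator of haematopoietic cells, ran from 0.19 to 1.28 in terminal end buds, with a median of 0.78, and from -0.39 to 0.43 in ducts, with a median of 0.17. Cd52, a small surface glycopeptide of lymphocytes and macrophages, ran from 0.23 to 0.84 in terminal end buds, with a median of 0.54, and from -0.38 to 0.33 in ducts, with a median of 0.12. All terminal end bud arrays were above 0 for both genes, and the lowest of them overlapped the highest duct arrays.

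Coro1a was higher in terminal end buds than in ducts by 0.59 (SE 0.18, adjusted p = 0.0334, limma), and Cd52 by 0.49 (SE 0.13, adjusted p = 0.0157, limma). Against stroma both were higher in terminal end buds (0.72 ± 0.38 and 0.57 ± 0.23, SD, n = 6, adjusted p = 0.000282 and 0.000147, limma). In ducts neither passed (0.13 ± 0.31 and 0.072 ± 0.25, SD, n = 6). The difference of Coro1a between the structures was near the threshold: it held in 14 of 24 alternative analyses and was lost without terminal end bud replicate 1 (adjusted p = 0.0679), 2 (0.0662) or 6 (0.0681) and without duct replicate 1 (0.0677), 3 (0.0689) or 6 (0.0715). That of Cd52 held in 21 of 24. Within the earlier and the later slides, Coro1a differed by 0.85 and 0.46 and Cd52 by 0.46 and 0.51, none of which passed on its own. After quantile normalization neither passed (adjusted p = 0.0982 and 0.0668).

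Ptprc encodes the leukocyte phosphatase CD45. It ran from -0.84 to -0.098 in terminal end buds (median -0.22) and from -0.38 to 0.43 in ducts (median 0.072). All terminal end bud arrays and 1 duct array lay below 0. Ptprc was lower than in stroma in terminal end buds (mean -0.35 ± 0.30, SD, n = 6, adjusted p = 0.0143, limma), a call lost without replicate 5 (-0.26, adjusted p = 0.0587). Its difference between the structures was -0.43 (SE 0.15, adjusted p = 0.0629, limma) and passed without duct replicate 6 (-0.52, adjusted p = 0.0217). Rac2, the GTPase of the phagocyte oxidase, stood at 0.15 ± 0.29 and -0.20 ± 0.27 (SD, n = 6), and its difference of 0.35 (SE 0.15, adjusted p = 0.128, limma) passed without terminal end bud replicate 5 (0.44, adjusted p = 0.0417). Duct replicate 6 was the lowest duct array for all 4 of these genes, and terminal end bud replicate 5 the lowest of its group for 3.

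Among the 12 lymphoid genes, Cd79b was the only one called between the structures. It encodes the beta chain of the B cell receptor complex. It was read on 1 probe, whose sequence was not analysed here, so that its values rest on the platform annotation of that probe. Its log2 ratio was 1.17 on the lowest terminal end bud array, 1.93 at the median and 2.13 on the highest, and 0.13, 0.23 and 0.72 in ducts. Every terminal end bud array lay above every duct array, and all 12 lay above 0. Cd79b was 2.77-fold higher in terminal end buds than in ducts (log2 difference 1.47, SE 0.16, adjusted p = 3.69e-05, limma), at 1.37 on the earlier slides and 1.52 on the later ones. Against stroma it was 3.52-fold higher in terminal end buds (mean 1.82 ± 0.36, SD, n = 6, adjusted p = 1.54e-08, limma). In ducts it was higher by 0.34 ± 0.24 (SD, n = 6, adjusted p = 0.0356, limma), a call lost without duct replicate 3 (adjusted p = 0.059), 5 (0.128) or 6 (0.104).

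The other B cell genes were not called between the structures. Cd79a, the alpha chain that pairs with it, ran from -0.32 to -0.12 in terminal end buds and from -0.31 to 0.0070 in ducts. It was slightly lower than in stroma in terminal end buds (mean -0.17 ± 0.077, SD, n = 6, adjusted p = 0.018, limma), a call lost without replicate 3 (-0.14, adjusted p = 0.0672), and its difference between the structures did not pass (adjusted p = 0.85, limma). Ms4a1, the B cell antigen CD20, had means of -0.044 ± 0.12 and 0.082 ± 0.28 (SD, n = 6). Cd37, a tetraspanin of B cells, was read on 2 probes. The first gave -0.094 ± 0.14 and -0.29 ± 0.40 (SD, n = 6) and passed no test, while the second gave -0.32 ± 0.29 in terminal end buds (SD, n = 6, adjusted p = 0.0211, limma) and -0.17 ± 0.26 in ducts (SD, n = 6). Ltb, a cytokine of lymphocytes, stood at 0.060 ± 0.11 and 0.037 ± 0.12 (SD, n = 6).

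Most T cell genes lay near 0 in both structures. The chains of the CD3 complex had means between -0.076 and 0.13 in terminal end buds and between -0.0015 and 0.13 in ducts, with values of Cd3d, Cd3e and Cd3g from -0.21 to 0.30 on all arrays. Cd3e had no value on terminal end bud replicate 2, so that its mean there rests on 5 arrays. Cd2, an adhesion receptor of T cells, stood at 0.14 ± 0.19 and 0.12 ± 0.10, and Il7r, the receptor for interleukin 7, at -0.077 ± 0.10 and -0.094 ± 0.15 (SD, n = 6). Cd8a stood at -0.056 ± 0.065 and -0.16 ± 0.17 (SD, n = 6), the second with an adjusted p of 0.0506 by limma, and passed in ducts under 8 alternative analyses, among them the one without duct replicate 3 (-0.22, adjusted p = 0.00737).

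Cd4, the co-receptor of helper T cells that some macrophages also carry, passed in both structures. It ran from -0.78 to 0.011 in terminal end buds (median -0.29) and from -0.57 to -0.0070 in ducts (median -0.29). Of the 12 arrays, 11 lay below 0. It was lower than in stroma in both structures (mean -0.32 ± 0.28, SD, n = 6, adjusted p = 0.0139 and -0.31 ± 0.21, SD, n = 6, adjusted p = 0.0261, limma). The first call was lost without terminal end bud replicate 4 (-0.22, adjusted p = 0.0565). The second was lost without duct replicate 1 (adjusted p = 0.0563), 2 (0.0898), 4 (0.0818) or 5 (0.0534), and passed on neither the earlier nor the later slides alone.

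In all, 1 lymphoid gene was higher and 2 lower than stroma in terminal end buds (median -0.05), 1 higher and 1 lower in ducts (median 0.005), and 1 higher and 0 lower in terminal end buds when set against ducts (median 0.017). The shares called, 25%, 16.7% and 8.33%, were below the 46.6%, 30.2% and 20.4% of all genes. The lymphoid genes varied little between arrays, with a median SD of 0.11 and 0.14 in the structures, below the 0.19 and 0.17 of all genes. No array was the highest or lowest of its group for more than 5 of the 12. Ratios carry no level, and intensities are not analysed here, so a gene with equal signal in both tissues and a probe near background cannot be told apart.

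Other immune genes were read from wider lists. Of 47 measured phagocyte genes outside the set, 10 were higher and 12 lower than stroma in terminal end buds, 4 higher and 8 lower in ducts, and 4 higher and 4 lower in terminal end buds when set against ducts. The shares called were 46.8%, 25.5% and 17%, near or below the 46.6%, 30.2% and 20.4% of all genes. Lyve1, a hyaluronan receptor of lymphatic vessels that also marks resident macrophages, was lower than in stroma in both structures, at -1.22 in terminal end buds and -0.59 in ducts. F13a1, the A chain of coagulation factor XIII found in tissue macrophages, was lower at a median of -0.95 in terminal end buds and -0.32 in ducts, and fell by 0.71 in terminal end buds against ducts. Pirb, an inhibitory receptor of myeloid cells, was lower at -0.84 and -0.51. The duct calls of these 3 genes were less stable: that of Lyve1 held in 15 of 25 alternative analyses (lost without any duct array but replicate 5, or without terminal end bud replicate 1, 4 or 6, adjusted p = 0.0508 to 0.159), that of F13a1 in 19 (lost without duct replicate 1, 3, 4 or 6, adjusted p = 0.0625 to 0.0965) and that of Pirb in 22 (lost without duct replicate 4 or 6, adjusted p = 0.0574 and 0.0579). Arg1, which encodes arginase 1, was higher in both at 1.54 and 1.72. Cyba, a subunit of the phagocyte oxidase that many other cells express, was higher than stroma in terminal end buds at 1.11 and higher than in ducts by 0.81. Ms4a6d was higher and Tlr4 lower in terminal end buds than in ducts on the probes read (0.97 and -0.43), but a second probe of each did not pass (0.12 and -0.075). The other calls between the structures, named because they are few, were Ctsz (0.61) and Ptpn6 (0.40), which were higher, and Retnla (-0.79) and Gpnmb (-0.31), which were lower. The Ptpn6 call held in 13 of 24 alternative analyses and was lost without terminal end bud replicate 2, 3, 4 or 6 or duct replicate 1, 3, 4 or 6 (adjusted p = 0.0547 to 0.0848).

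Genes of MHC class II presentation mark macrophages, dendritic cells and B cells. Of 9 measured, 4 were higher and 0 lower than stroma in terminal end buds, and 5 were higher and 1 lower in ducts, the last being Ciita, the activator of these genes, at -0.19. These are 44.4% and 66.7% of the list, against 46.6% and 30.2% of all genes. The Ciita call held in 18 of 25 alternative analyses and was lost without any duct array but replicate 1 (adjusted p = 0.052 to 0.0821). Cd74, the invariant chain, stood at 0.94 ± 0.45 in terminal end buds and 0.77 ± 0.32 in ducts (SD, n = 6). H2-Ab1, the beta chain of the I-A molecule, stood at 0.92 ± 0.39 and 0.36 ± 0.28 (SD, n = 6), and H2-Aa, its alpha chain, was higher in ducts at 0.56 ± 0.37 while its mean of 0.12 ± 0.22 in terminal end buds did not pass (SD, n = 6). In ducts the H2-Ab1 call held in 15 of 25 analyses (lost without any duct array but replicate 4, or without terminal end bud replicate 1 or 6, adjusted p = 0.0513 to 0.141). H2-DMb1 stood at 0.89 and 0.56 and H2-DMa, its partner, at 0.52 and 0.17, its duct call holding in 16 of 25 and lost without any duct array but replicate 4 (adjusted p = 0.0547 to 0.0981). In terminal end buds against ducts, 3 of the 9 were higher: H2-Ab1 by 0.56 (adjusted p = 0.0365, held in 15 of 24 alternative analyses), H2-DMa by 0.35 (0.00595, 23 of 24) and H2-DMb1 by 0.33 (0.04, 10 of 24), by limma. These 3 calls were 33.3% of this short list, against 20.4% of all genes. The H2-Ab1 difference was lost without terminal end bud replicate 1 or 6 or duct replicate 3, 4, 5 or 6 (adjusted p = 0.0531 to 0.0801). That of H2-DMb1 was lost without any terminal end bud array but replicate 3 and without duct replicate 1, 3, 4 or 6 (adjusted p = 0.0544 to 0.0916).

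**Figure D4:**
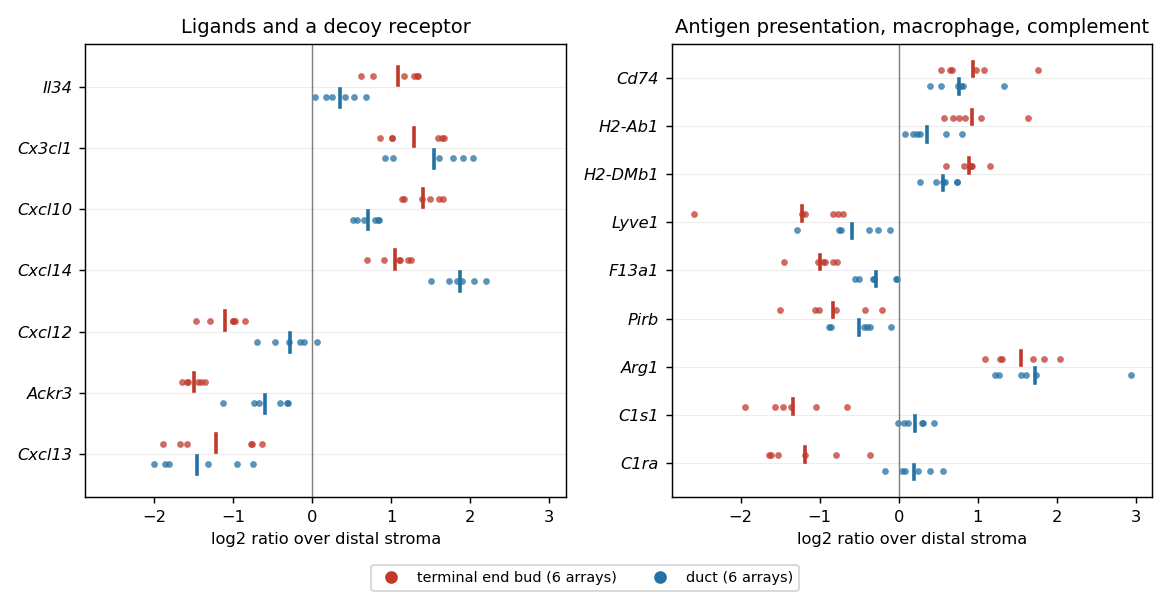
Log2 ratio over distal stroma (x axis) on each array for chemokines, Il34 and the decoy receptor Ackr3 (left) and for class II, macrophage and complement genes outside the set (right), terminal end buds in red and ducts in blue, with a bar at each mean. Il34 averages 1.08 in terminal end buds and 0.35 in ducts, Cd74 0.94 and 0.77, Lyve1 -1.22 and -0.59, and C1s1 -1.34 and 0.20.

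Of 35 measured lymphocyte genes outside the set, 7 were higher and 3 lower than stroma in terminal end buds, 5 higher and 0 lower in ducts, and 2 higher and 1 lower in terminal end buds when set against ducts. The shares called, 28.6%, 14.3% and 8.57%, were below the 46.6%, 30.2% and 20.4% of all genes. Thy1, a T cell antigen that fibroblasts also carry, was higher than in stroma at 1.29 in terminal end buds and 0.62 in ducts. Blnk, an adaptor of the B cell receptor, was higher than stroma in terminal end buds at 0.40 and higher than in ducts by 0.30. Ikzf1 (0.29), Il2rb (0.28), Txk (0.28), Satb1 (0.19) and Cd22 (0.15) were also higher than stroma there (adjusted p = 0.00346 to 0.0368, limma). How these terminal end bud calls fared under the alternative analyses is not given here. The other genes that passed as higher in ducts, named because they are few, were Cd7, Txk, Klrd1 and Nkg7, at 0.22 to 0.36, and those lower than stroma in terminal end buds were Cd5 (-0.63), Lef1 (-0.23) and Fcer2a (-0.12). The Cd5 mean was set largely by terminal end bud replicate 3, and without it was -0.31 (adjusted p = 0.00565). Lef1 held in 20 of 25 alternative analyses (lost without terminal end bud replicate 3, 4 or 6, adjusted p = 0.0585 to 0.0983, and at -0.15 without replicate 4) and Fcer2a in 16 (lost without replicate 2, 3, 4 or 6, adjusted p = 0.0534 to 0.113). In ducts, Txk was lost without duct replicate 3 or 6 (adjusted p = 0.0539 and 0.0561) and Nkg7 without duct replicate 4 (0.16, adjusted p = 0.0661). Gzma, a granule protease of cytotoxic cells, was lower in terminal end buds than in ducts, with a difference of -0.37 (adjusted p = 0.04, limma) and one of 0.015 in the other direction on the slides up to 193. It held in 15 of 24 alternative analyses and was lost without terminal end bud replicate 3, 4 or 6 or duct replicate 3, 4, 5 or 6 (adjusted p = 0.0525 to 0.088). The erythrocyte list, as a sign of blood, had 1 of 3 genes, Alas2, lower than in stroma in each structure and 0 that differed between the structures.

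Outside all of these lists, the genes whose 12 array values were most like the mean of Ptprc, Cd52, Coro1a and Rac2 were sought among 12575 genes by Pearson's r. They were Gusb (r = 0.95), Slamf9 (0.94), Ifi30 (0.91), Trpv2 (0.89) and Alox5ap (0.89), over 12 arrays that all have distal stroma as the reference. All 5 had higher means in terminal end buds than in ducts, as did 3 of the 4 genes they were matched to. They were chosen for this likeness, so the values are a description.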

How the data were processed

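The authors deposited a table of normalized log2 ratios of Cy5 over Cy3, here epithelial structure over distal stroma, for 17589 probes on 12 arrays. How the slides were scanned, corrected for background and normalized is not stated in the labels or the table, and is not given here. Base 2 was inferred from the values. The ratios were used as deposited. The platform annotation gave 14136 probes 1 gene symbol, 13 several and 3440 none. Where several probes named 1 gene, the probe with the fewest missing values stood for it, with ties settled by table order. Of all probes, 129 lacked a value on an array, and none fell below 4 values per group.

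Tests used limma 3.58.1 in R 4.3.3 (lmFit and eBayes, two-sided): 1 fit of 2 group means over 12 arrays, with Benjamini-Hochberg adjustment across the whole table and a threshold of 0.05. The comparisons with stroma test a group mean against 0. Replicate numbers follow the order of the records and pair nothing. On simulated data with 200 changed probes among 17589, the comparison of terminal end buds with ducts recovered 53.7% of log2 changes of 0.5, 95.5% of 1 and 100% of 2, and made 12 false calls. The simulated noise was normal and independent between probes, and the changed probes were drawn at random from all probes. The myeloid genes varied more, with a median SD of 0.40 over terminal end bud arrays against 0.19 over all genes. Many of them were also extreme on the same arrays, so these recovery figures need not hold for the set. The number of arrays limits the precision.

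The genes and lists were chosen with earlier results of these data known. All measured genes of the set are named. For each other list and comparison, the rule took up to 3 called genes with the largest positive and 3 with the largest negative difference, and those the results turn on are described. It also took 5 genes outside the lists most like the shared leukocyte genes. Alternatives were centring, quantile and common-spread scaling, probe filters, variance models, slide blocks, early or late slides alone, and each array left out. Promoters came from RefSeq on GRCm38.p6.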

Additional observations from a re-analysis of the deposited data

Results flagged for a closer look

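Mrc1 (-1.32 on the log2 scale), Cd79b (1.47), Cd52 (0.49) and Coro1a (0.59) differed between terminal end buds and ducts by limma's test of the difference itself. Mrc1 and Cd79b held in 24 of 24 alternative analyses, Cd52 in 21 and Coro1a in 14.

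In 3 of 68 groups of arrays a value stood far from the others of its gene: Csf1 at 0.62 on terminal end bud replicate 2, Cd163 at -1.50 on duct replicate 4 and Cd79a at -0.32 on terminal end bud replicate 3. Chance alone gives about 1 such value in 20 groups.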

How the results depend on the processing

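With 4 genes of the set called between the structures, 2 were called after quantile normalization, 2 on the slides up to 193 alone and 2 on the slides from 196 on alone, and 3 to 5 when 1 array was left out. Against stroma, 14 were called in terminal end buds, 8 on the slides up to 193 alone and 12 to 17 with 1 array left out. In ducts 5 were called, 9 after quantile normalization, 8 after scaling to a common median absolute deviation, 8 with array weights, 1 on the slides up to 193 alone and 3 to 6 with 1 array left out. On the slides up to 193 alone, with 2 arrays per group, 1023, 4663 and 2180 probes were called in the comparisons of terminal end buds with ducts, terminal end buds with stroma and ducts with stroma, against 3295, 7674 and 4952 with all arrays. These slides hold fewer arrays, and the cause of the lower counts was not tested. There, Gzma (0.0145) and Prtn3 (0.0050) between the structures and Txk in ducts (-0.0035) changed sign. Centring each array moved the duct calls over all probes from 2814 higher and 2138 lower to 2508 and 2410.

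Over 2513 values of the set under alternatives, 103 changed sign while passing the test in neither analysis, and none that passed did so. The median over the 34 genes ranged from -0.034 to 0.053 between the structures, -0.12 to -0.016 in terminal end buds and -0.13 to 0.041 in ducts, against an SD of the array medians of 0.16, 0.13 and 0.18. The highest value of each came from the slides up to 193. The labels give no replicate numbers and pair no arrays. With neighbouring slides, each pair holding 1 array of either structure, as a block, the correlation was 0.072 and 4, 14 and 5 genes of the set were called, as without it. The number of arrays, the unknown level of each probe and the use of stroma only as the reference limit these results.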

Other observations

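Mast cells and eosinophils, leukocytes outside the set described above, were read from a list of 12 measured genes. In ducts 4 were higher than stroma and 0 lower: Cpa3 (1.06 ± 0.42, SD, n = 6) and Tpsb2 (0.77 ± 0.28, SD, n = 6), proteases of mast cell granules, Tpsab1 (0.43), a tryptase, and Kit (1.37 ± 0.28, SD, n = 6), the stem cell factor receptor, which luminal progenitor cells also carry. The Tpsab1 call was lost without duct replicate 4, 5 or 6 (adjusted p = 0.0734 to 0.109). Of the 12 genes, 33.3% passed in ducts, against 30.2% of all genes. Cpa3 ran from 0.64 to 1.69 in ducts and from -0.47 to 0.089 in terminal end buds, without overlap, and differed by -1.36 (adjusted p = 0.000125, limma) in 24 of 24 alternative analyses. Tpsb2 was also lower in terminal end buds than in ducts, with a difference of -0.70 (adjusted p = 0.00441, limma), a call lost on the slides up to 193 alone (-0.37, adjusted p = 0.245). In terminal end buds Kit (1.66) and Prg2 (0.62), the major basic protein of eosinophils, were above stroma and Fcer1a (-0.23), the mast cell receptor for immunoglobulin E, was below it.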
